A study of Mus musculus with 12 samples.

Results

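The cytokine, chemokine and receptor genes of the blood were examined in aged mice given *Akkermansia muciniphila*, a bacterium of the gut mucus layer, and in control mice. Members were the genes of the blood expression table whose symbols mark them as chemokines (Ccl, Cxcl, Xcl), chemokine receptors (Ccr, Cxcr, Xcr, Cx3cr), interleukins and their receptors (Il), or ligands and receptors of the tumour necrosis factor (TNF) and transforming growth factor beta (TGF-beta) families. Il1b, Il18, Il4i1 and Ccl12 were left out by rule, and 3 of these 4 were in the table. This gave 77 members among 8003 genes. By role, 9 were chemokine ligands, 15 chemokine receptors, 8 interleukins or their antagonists and binding proteins, 20 interleukin receptor chains, 6 TNF ligands, 12 TNF receptors and 7 genes of the TGF-beta group. Tgfbi, Tgfb1i1 and Tgfbrap1 entered the last class by name and encode neither the cytokine nor its receptors. Genes without such a symbol, such as the platelet chemokines Pf4 and Ppbp, were not members, and Il6 was not analysed here.

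Chemokines are small secreted proteins that direct the migration of white blood cells through G protein-coupled receptors. Interleukins mostly signal through paired receptor chains and the JAK-STAT pathway, TNF receptors act through adaptor proteins on NF-kB and cell death, and TGF-beta acts through receptor kinases and SMAD proteins. In blood these receptors are divided among cell types, with Cxcr2 typical of neutrophils, Ccr2 and Cx3cr1 of monocytes, Cxcr5 of B cells, and Cxcr3, Cxcr6 and Ccr4 of T cell subsets, some of them shared with natural killer (NK) cells.

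Blood was taken from 3 mice without the treatment (Ctrl 1, Ctrl 2, Ctrl 3) and from 3 *A. muciniphila*-treated mice (Akk 1, Akk 2, Akk 3), and 1 library was made per mouse. All were C57BL/6 mice aged 15 months, and mice of either sex were used in the study. The labels call the controls Normal and give the treatment as a membrane protein of the bacterium, with a duration of 8 weeks among the sample characteristics but 6 weeks in a protocol text that the controls carry too. The study's methods instead describe gavage with the live bacterium after antibiotics, with a vehicle for the controls, and state that the mice used for RNA were ones in which colonization had not succeeded. The unit was FPKM, that is, sequenced fragments per unit of transcript length and of library size, so that levels of different genes can be compared. The blood table lists only genes that the study counted as changed between the groups, in either direction. A difference in each member was thus fixed by that selection, and its direction, from the same values, is given here as a description. The read depth of the libraries is unknown, as the table holds no counts.

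Promoter windows are shown for 4 members that stand for the patterns described further on, 2 in which Ctrl 1 was not far above the other control mice (Xcl1 and Cxcr3) and 2 that stood far higher in Ctrl 1 than in the other control mice (Ccr1 and Tnfrsf1b). Each is the 250 bases before the annotated start, from RefSeq (GRCm38.p6), read on the minus strand of the genome, 5′ to 3′. Capitals mark a match to a motif on either strand. The Xcl1 window (chr1:164935523-164935772) holds a T-box motif, the Cxcr3 window (chrX:101734148-101734397) an ETS motif read on the other strand, the Ccr1 window (chr9:123968693-123968942) an NF-kB motif, and the Tnfrsf1b window (chr4:145246871-145247120) an ETS motif followed by a STAT (GAS) motif. GENCODE M21, which gave the gene positions, places the Cxcr3 start at chrX:101734269. By that annotation the part of the Cxcr3 window with the ETS match lies within the gene.
Xcl1: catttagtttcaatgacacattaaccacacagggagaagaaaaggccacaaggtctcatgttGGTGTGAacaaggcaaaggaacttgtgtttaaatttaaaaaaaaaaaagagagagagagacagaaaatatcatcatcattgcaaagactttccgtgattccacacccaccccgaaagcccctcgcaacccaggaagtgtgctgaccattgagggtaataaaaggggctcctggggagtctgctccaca
Cxcr3: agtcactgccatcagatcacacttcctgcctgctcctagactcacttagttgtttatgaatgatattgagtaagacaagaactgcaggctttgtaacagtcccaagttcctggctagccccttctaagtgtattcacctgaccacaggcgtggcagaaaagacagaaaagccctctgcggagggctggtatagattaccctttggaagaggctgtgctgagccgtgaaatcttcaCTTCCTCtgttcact
Ccr1: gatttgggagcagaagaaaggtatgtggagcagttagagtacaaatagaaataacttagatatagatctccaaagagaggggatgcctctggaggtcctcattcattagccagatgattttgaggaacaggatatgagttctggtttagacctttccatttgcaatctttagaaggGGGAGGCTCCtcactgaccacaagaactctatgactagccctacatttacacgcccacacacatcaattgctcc
Tnfrsf1b: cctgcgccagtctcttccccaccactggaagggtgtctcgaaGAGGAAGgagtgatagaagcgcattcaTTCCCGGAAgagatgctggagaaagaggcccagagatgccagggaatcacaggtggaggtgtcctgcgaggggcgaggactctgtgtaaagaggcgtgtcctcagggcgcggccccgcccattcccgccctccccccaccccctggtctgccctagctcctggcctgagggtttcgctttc

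Windows were matched by symbol for 58 of the 77 members. The T-box letters GGTGTGA were in 1 member window (1.72%), against 3.31% of the 27025 windows of all genes and 2.86% of those of the blood table. The ETS letters GAGGAAG were in 7 (12.1%), against 10.4% and 12.1%. The GAS letters TTCNNNGAA were in 8 (13.8%), against 7.18% and 5.84%, and the NF-kB motif in 9 (15.5%), against 7.01% and 8.74%. The T-box motif was chosen after the Xcl1 window had been read. A match describes these letters only, and binding was not measured.

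The member genes spanned a wide range of levels. Of the 77 members, 62 were above 0 in all 6 libraries, 34 had a mean of at least 1 FPKM, and 21 had a median below 0.1 FPKM. Tgfb1, which encodes a cytokine that restrains T cells and is abundant in platelets, Ccl6, a chemokine of myeloid cells, and Ccl5, a chemokine made by cytotoxic T cells and NK cells, were the highest in each library except Ctrl 1, where Cxcr2 took the third place from Ccl5. The top member was Tgfb1 in Ctrl 1, Ccl5 in Ctrl 2, Ctrl 3, Akk 1 and Akk 2, and Ccl6 in Akk 3. The FPKM of the members summed to 637, 151 and 97.9 in the control mice and to 90.2, 75.8 and 74.7 in the treated mice, which was 0.696% to 0.906% of the sum over the table. Each control sum was above each Akk sum, with Ctrl 1 far above the rest, and the share of the table spanned a narrow range.

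**Figure D1:**
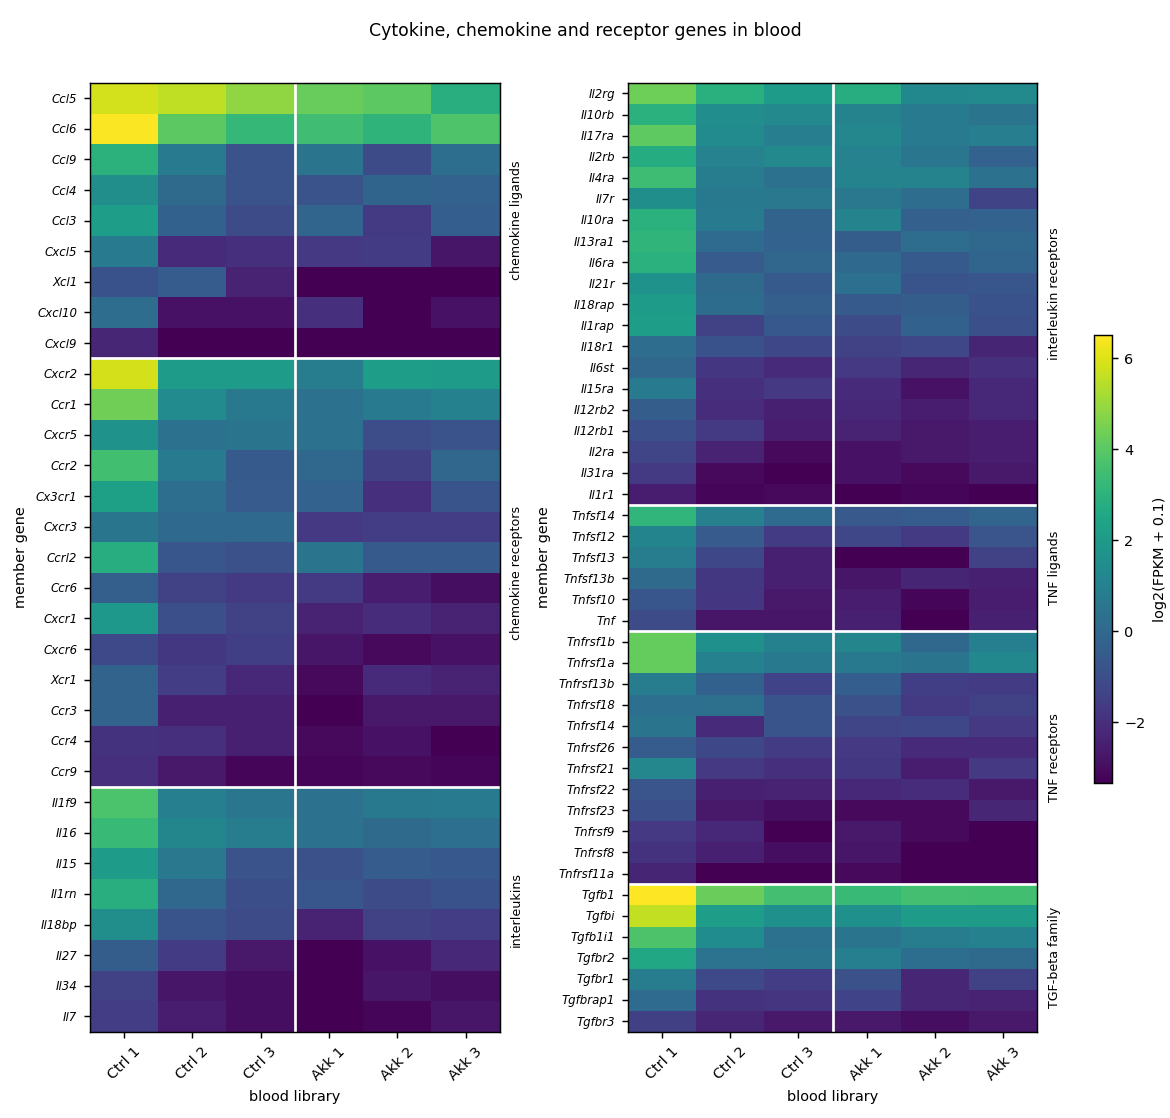
Heat map of members (rows, by role class and median level) in the 6 blood libraries (columns), coloured by log2(FPKM + 0.1). The Ctrl 1 column is the brightest for each member drawn except Xcl1 and Tnfrsf18, and Ctrl 2 and Ctrl 3 are close to the Akk columns for most.

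Each member was tested with limma on log2(FPKM + 0.1), a scale that understates the change of low genes, with Benjamini-Hochberg adjustment over the 8003 genes, and was called where the fold change reached 1.5 with an adjusted p no higher than 0.05. No member was called: 0 were lower and 0 were higher in Akk, against 0% of the table in each direction (0 and 0). The adjusted p of the members lay between 0.487 and 0.685. The mean was lower in Akk for 77 of 77 members (99.5% of the table), in a table whose selection had fixed that each gene differed. An unadjusted p under 0.05 was found for 6 members (7.79%, against 3.4% of the table), among them Xcl1, Cxcr1, Cxcr6, Ccr4 and Tnfsf13. That count was 10 without Ctrl 1, 34 without Ctrl 3, and 1, 1 and 2 without Akk 1, 2 or 3. The groups did not overlap, with all Akk values under all Ctrl values, for 18 members (23.4%, against 15.4% of the table). The same shares of the table, 3.4% and 15.4%, are the background of the counts given for each class and list further on.

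The highest of the 6 values was in Ctrl 1 for 75 members (97.4%, against 98.2% of the table). The median ratio of Ctrl 1 to the mean of Ctrl 2 and Ctrl 3 was 5.66 over the members and 5.07 over all genes. The median log2 difference of the members was 1.73 between Ctrl 1 and Ctrl 2 and 2.25 between Ctrl 1 and Ctrl 3, but 0.42 between Ctrl 2 and Ctrl 3. A single control library therefore set most of the difference between the groups, and the log2 fold changes of named members in blood are given with and without it. Without Ctrl 1, the mean was lower in Akk for 58 members (75.3%, against 80.8% of the table), higher for 17 and equal for 2. Every Akk library then lay below Ctrl 2 and Ctrl 3 for 18 members (23.4%, against 15.6%), and 10 had an unadjusted p under 0.05 (13%, against 4.99%), among them Ccl5, Xcl1, Cxcr3, Cxcr1, Cxcr6, Ccr4, Il16, Tnfsf14 and Tnfrsf18. The median log2 fold change of the members was -1.10 with all libraries and -0.33 without Ctrl 1, beside -0.87 and -0.24 over all genes.

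When libraries were centred on their medians, the median over all genes moved from -0.87 to 0.04 and that of the members from -1.10 to -0.19. Relative to that shift, 46 members were below 0 and 31 above 0, and 8 had an unadjusted p under 0.05 in the lower direction (10.4%, against 3.22% of the table), among them Xcl1, Cx3cr1, Cxcr3, Cxcr1, Il16, Il18bp and Tnfsf14. Of the 45 members named by rule, those whose sign turned with the scaling are listed with the effects of the processing.

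**Figure D2:**
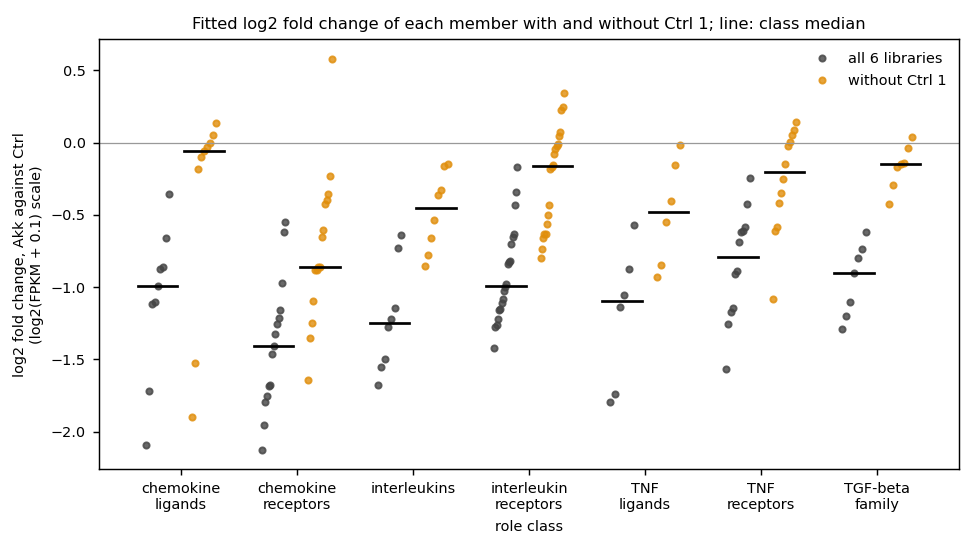
Fitted log2 fold change of each member (points) in Akk against Ctrl on the log2(FPKM + 0.1) scale, by role class, with all 6 libraries (grey) and without Ctrl 1 (orange), with class medians as lines. Without Ctrl 1 the chemokine receptors keep the lowest class median (-0.86), and the medians of the other classes lie between -0.48 and -0.06.

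Among the chemokine ligands, Ccl5 and Xcl1, products of cytotoxic T cells and NK cells, separated the groups, and the other 7 did not. Ccl5 (gene ID 20304, chr11:83525778-83530518) stood at 56.41, 47.23 and 29.45 FPKM in the control mice and at 18.61, 16.12 and 7.16 in the Akk mice. The lowest control was above the highest treated mouse, and the means were 44.4 ± 13.7 and 14.0 ± 6.02 FPKM (SD, n = 3). The ratio of the means was 3.18, and 2.75 without Ctrl 1. The fitted log2 fold change was -1.72 (SE 0.97, adjusted p = 0.487 with limma), and it was -1.52 without Ctrl 1, so that Ctrl 1 carried little of it.

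Xcl1 (gene ID 16963, chr1:164931644-164935527) encodes the ligand of Xcr1, a receptor of cross-presenting dendritic cells. It was listed at 0.46, 0.63 and 0.09 FPKM in the control mice and at 0 in all 3 Akk mice. Its highest value was in Ctrl 2 and not in Ctrl 1. The groups were kept apart by only 0.09 FPKM in Ctrl 3, a value near 0, unlike the wider gap of Ccl5. Because its counts are unknown and a value of 0 gives no ratio, no fold is given. Its adjusted p was 0.487 with limma, and it was 0.0139 with a pseudocount of 0.01 and 0.0134 without Ctrl 3, within a range of 0.0134 to 0.934 over the alternatives. These were the only 2 settings tried under which any member was called.

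The remaining ligands have other or broader sources, among them myeloid cells. Ccl6 was 85.79, 15.95 and 9.32 FPKM in the control mice against 11.11, 8.16 and 13.60, and Ccl9 was 7.79, 1.58 and 0.47 against 1.27, 0.38 and 1.06. Ccl3 was 4.33, 0.72 and 0.39 against 0.83, 0.22 and 0.66, and Ccl4 was 2.76, 0.94 and 0.47 against 0.47, 0.80 and 0.74. In these 4 the Akk values lay among or close to those of Ctrl 2 and Ctrl 3, and without Ctrl 1 their log2 fold changes ran from -0.18 to -0.03. Cxcl10, an interferon-induced ligand of Cxcr3, was 1.05 FPKM in Ctrl 1 and 0.04 in both other control mice, and 0.16, 0 and 0.04 in Akk. Cxcl9, another ligand of Cxcr3, was 0.11 FPKM in Ctrl 1 and listed at 0 in the other 5 libraries. Cxcl5, a neutrophil attractant, was 1.49, 0.13 and 0.15 FPKM against 0.21, 0.23 and 0.05, so that these ligands too were high in Ctrl 1 alone. Ccl5, Ccl9, Ccl6, Ccl3 and Ccl4 lie together in chr11:83525778-83664683, and only Ccl5 of these 5 neighbours had groups that did not overlap.

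The ligands also differed in their make-up within each library, a comparison that needs no scaling between libraries. Ccl5 made up 8.86%, 31.2% and 30.1% of the summed FPKM of the members in Ctrl 1, 2 and 3, and 20.6%, 21.3% and 9.58% in Akk 1, 2 and 3. The ratio of Ccl5 to Ccl6 was 0.658, 2.96 and 3.16 in the control mice and 1.68, 1.98 and 0.526 in the Akk mice. On this measure Ctrl 1 lay beside Akk 3, and the groups overlapped.

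**Figure D3:**
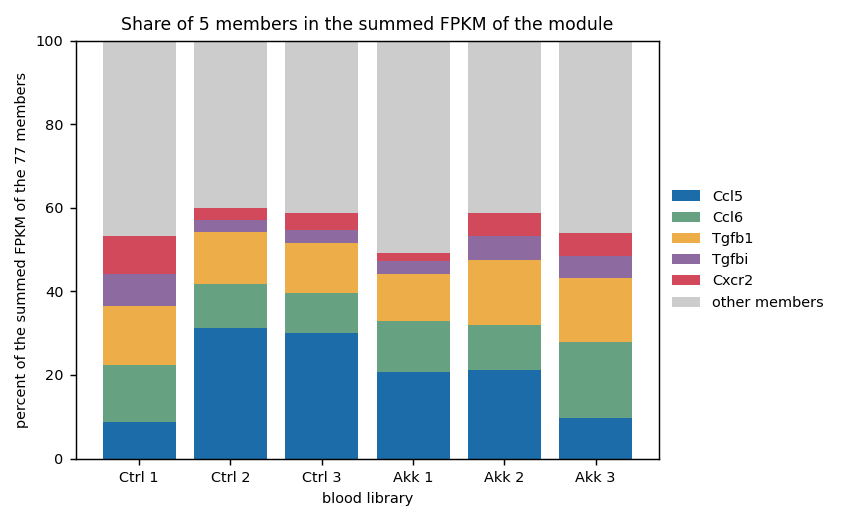
Stacked bars of the percent of the summed FPKM of the 77 members in each blood library that came from Ccl5, Ccl6, Tgfb1, Tgfbi, Cxcr2 and the remaining members. Ccl5 has its largest shares in Ctrl 2 and Ctrl 3 (31.2% and 30.1%) and its smallest in Ctrl 1 and Akk 3 (8.86% and 9.58%).

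The chemokine receptors had the lowest class median, -1.41 with all libraries, -0.86 without Ctrl 1 and -0.50 with centred libraries. Of 15 receptors, 0 were called, 4 had an unadjusted p under 0.05 (3.4% of the table did), and 6 had groups that did not overlap (15.4% of the table), among them Cxcr3, Cxcr6, Ccr4, Cxcr1 and Ccr3. Cxcr3, Cxcr6 and Ccr4, which T and NK cells carry, kept most of their log2 fold change without Ctrl 1, whereas Cxcr2, Ccr1 and Ccr2, which neutrophils and monocytes carry, kept less. This split did not hold for every receptor. Without Ctrl 1, Cxcr1 went from -2.13 to -1.09 and Cx3cr1 from -1.68 to -0.88. Cxcr5 went from -1.33 to -0.88 and Ccr9 from -0.55 to -0.23.

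Cxcr3, the receptor of effector T cells and NK cells for Cxcl9 and Cxcl10, was 1.31, 0.93 and 0.93 FPKM in the control mice and 0.21, 0.24 and 0.24 after treatment. Its means were 1.06 ± 0.219 and 0.230 ± 0.0173 FPKM (SD, n = 3), a ratio of 4.59, and 4.04 without Ctrl 1. Its log2 fold change was -1.79 (SE 0.92, adjusted p = 0.487 with limma) and -1.64 without Ctrl 1 (SE 0.35, adjusted p = 0.349). Cxcr3 thus had a narrow spread within each group and a gap between them, but it did not pass the threshold over the table. Its SE of 0.92 with all libraries was also that of Ccl4 and Cx3cr1, as limma shares the variance estimate over the table.

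Cxcr6, a receptor of tissue-homing T cells, was 0.35, 0.20 and 0.25 FPKM against 0.05, 0.02 and 0.04. Ccr4, a receptor of helper and regulatory T cells, was 0.17, 0.16 and 0.08 against 0.02, 0.04 and 0. In both the groups did not overlap, at levels that are low in whole blood. Their log2 fold changes were -1.41 and -0.97 with all libraries and -1.25 and -0.86 without Ctrl 1, each with an adjusted p of 0.487 by limma in the former. With centred libraries the log2 fold changes were smaller, -0.81 for Ccl5, -0.88 for Cxcr3, -0.50 for Cxcr6 and -0.06 for Ccr4. They stayed below 0 under each alternative that gave a value for these genes.

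Cxcr2, the main chemokine receptor of neutrophils, was 58.13, 4.25 and 4.16 FPKM in the control mice and 1.66, 4.30 and 4.14 in the Akk mice. Ctrl 1 alone was high, and Ctrl 2 and Ctrl 3 lay between the Akk mice. Its ratio of means was 6.59 with all libraries and 1.25 without Ctrl 1. Ccr1, a receptor of neutrophils and monocytes, was also far highest in Ctrl 1, with 20.44, 2.60 and 1.46 FPKM against 1.17, 1.54 and 1.88. So was Ccr2, the receptor of inflammatory monocytes, with 11.30, 1.53 and 0.58 against 0.88, 0.26 and 0.84. In both, Ctrl 2 was above every Akk mouse and Ctrl 3 lay among them. Cx3cr1, the fractalkine receptor of monocytes, was 4.73, 1.08 and 0.61 FPKM against 0.74, 0.15 and 0.48, so that Akk 1 overlapped Ctrl 3.

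Cxcr1 is the neighbour of Cxcr2 in chr1:74153989-74194631 and encodes the other receptor of that pair. It was 3.65, 0.42 and 0.27 FPKM in the control mice and 0.09, 0.14 and 0.09 in the Akk mice. Unlike Cxcr2, its groups did not overlap, with a log2 fold change of -2.13 (SE 0.90, adjusted p = 0.487 with limma) and -1.09 without Ctrl 1. Ccrl2, a receptor that binds chemerin without signalling, was 6.86, 0.51 and 0.44 FPKM against 1.26, 0.58 and 0.58, and was higher in each Akk mouse than in Ctrl 2 and Ctrl 3. Cxcr5, the follicular homing receptor of B cells, was 3.23, 1.17 and 1.27 against 1.19, 0.40 and 0.47. It shares exon bases with Bcl9l on the opposite strand, which is in the table too. Of the receptors not yet given, Ccr3, typical of eosinophils, reached 0.78 FPKM in Ctrl 1 and at most 0.08 in the other libraries, and Ccr6, Xcr1 and Ccr9 reached 0.69, 0.78 and 0.16 FPKM in Ctrl 1.

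**Figure D4:**
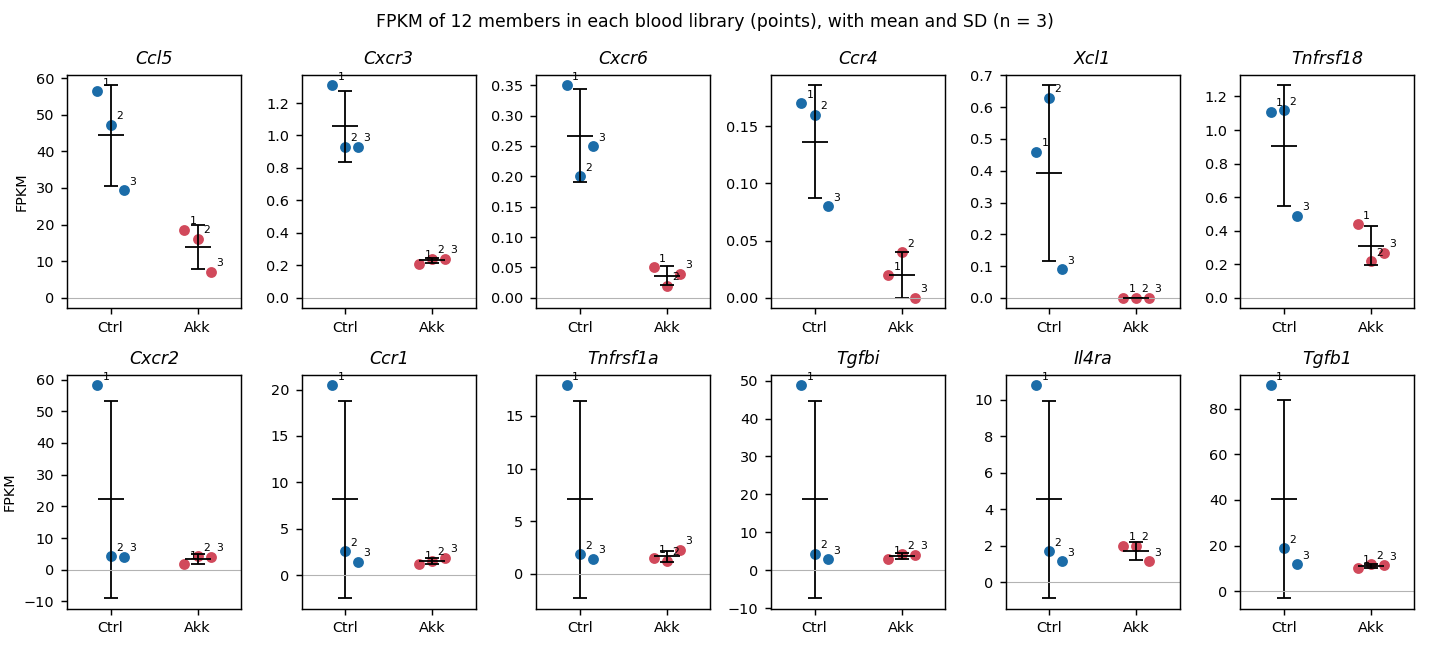
FPKM of 12 members in each blood library (points numbered by mouse), with mean and SD (black, n = 3) for Ctrl and Akk, each panel with its own axis. In the upper row (Ccl5, Cxcr3, Cxcr6, Ccr4, Xcl1 and Tnfrsf18) all Akk points lie below all Ctrl points, and in the lower row (Cxcr2, Ccr1, Tnfrsf1a, Tgfbi, Il4ra and Tgfb1) Ctrl 1 stands alone and the other 5 libraries lie together.

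The size of the Ctrl 1 excess differed widely between members. The ratio of Ctrl 1 to the mean of Ctrl 2 and Ctrl 3 was under 2 for 7 of the 75 members with a ratio (9.33%, against 3.82% of the table), and 6 of these had groups that did not overlap, as had 52.8% of all genes with such a ratio. These were Xcl1 (1.28), Tnfrsf18 (1.38), Cxcr3 (1.41), Ccr4 (1.42), Ccl5 (1.47) and Cxcr6 (1.56), and the other was Il7r (1.95). Further genes of lymphocytes had larger ratios, such as Il18r1 (2.58), Ccr6 (2.76) and Il2rb (3.06). The ratio was over 10 for 14 members (18.7%, against 6.19% of the table), among them Cxcr2 (13.8), Tgfbi (13.4), Il1rn (11.4), Ccr2 (10.7), Tnfrsf1a (10.7), Cxcr1 (10.6) and Ccr1 (10.1). Both counts use the same control values, so they are a description.

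**Figure D5:**
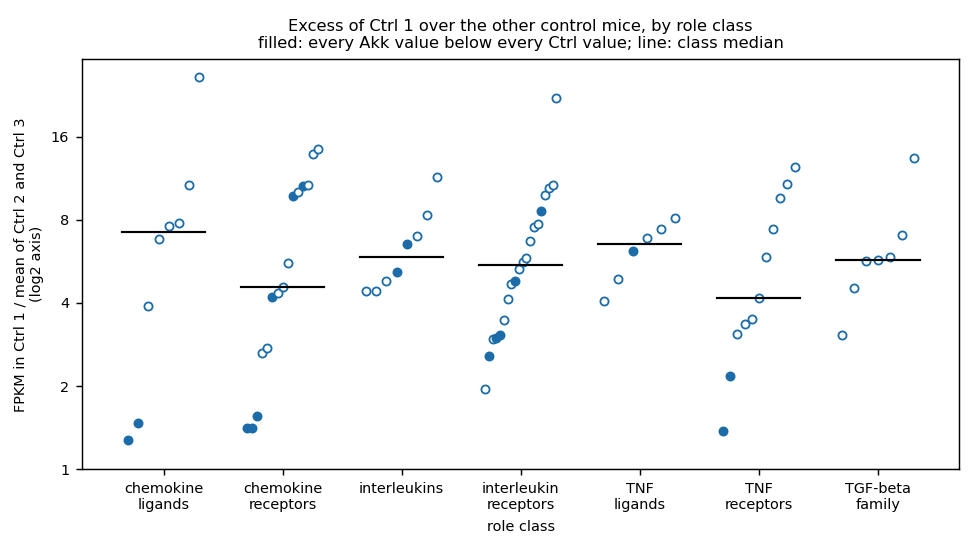
Ratio of the FPKM in Ctrl 1 to the mean of Ctrl 2 and Ctrl 3 for each member (points, log2 axis), by role class, with class medians as lines. Filled points are members whose Akk values were all below their Ctrl values, and 6 of the 7 members with a ratio under 2 are filled. Cxcl9 and Tnfrsf11a, listed at 0 in Ctrl 2 and Ctrl 3, are not drawn.

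Marker genes of blood cell types, counted without the members, were set beside these patterns. The 11 listed of 16 T cell markers summed to 32.6, 21.5 and 12.8 FPKM in the control mice and to 14.7, 9.52 and 4.42 in the Akk mice, and groups did not overlap for 4 of them. The 12 of 12 NK cell markers summed to 82.3, 35.4 and 17.6 FPKM against 15.5, 9.73 and 8.12, without overlap for 8. The 12 of 15 neutrophil markers summed to 1428, 412 and 298 FPKM against 148, 382 and 241, without overlap for 7, and the 11 of 12 monocyte markers to 1109, 234 and 86.4 against 142, 86.4 and 140, without overlap for 1. In these lists 0 genes were called by limma, with an unadjusted p under 0.05 for 0, 5, 4 and 4 of them, and none of the listed T and NK markers was at 0 in any library. The summed NK markers were lower in every Akk mouse than in every control mouse, while the T cell sum of Akk 1 exceeded that of Ctrl 3. Gzma, the largest part of the NK sum in each control mouse, was 36.54, 14.05 and 7.23 FPKM against 5.08, 2.88 and 3.42. Its gap between Ctrl 3 and Akk 1 was wider than that of the NK sum, so the other NK markers together did not separate the groups. S100a8 and S100a9 dominated the neutrophil sum, at 343 and 625 FPKM in Ctrl 1. Of the 12 neutrophil markers 9 were highest in Ctrl 1. The others, Ngp, Camp and Ltf, were highest in Ctrl 3 and had no overlap, with Ngp at 18.66, 7.69 and 20.98 FPKM against 0.67, 2.90 and 4.86. The part of these cell types in the members' values was not tested, and in whole blood fewer cells of a type and less RNA per cell cannot be told apart. Cd3d, Cd3g, Cd8a and Cd14 were not analysed here, nor were the 13 red cell markers, while Cd3e was above 0 in all libraries. The 12 of 12 platelet markers summed to 3873, 872 and 394 FPKM against 454, 496 and 574, without overlap for 3, and the 3 of 11 B cell markers to 13.6, 5.19 and 2.90 against 6.32, 2.23 and 2.36, without overlap for 0.

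Among the interleukins and their antagonists, 0 of 8 were called, 0 had an unadjusted p under 0.05, and Il16 and Il18bp had groups that did not overlap. Il16, a chemoattractant of CD4 T cells, was 9.86, 2.15 and 1.65 FPKM in the control mice and 1.15, 0.94 and 1.09 in the treated mice. Its log2 fold change was -1.55 (adjusted p = 0.487 with limma) and -0.78 without Ctrl 1. Il18bp, a decoy that neutralises IL18, was 2.80, 0.49 and 0.37 against 0.09, 0.28 and 0.24. Il16 overlaps Stard5 and Il18bp overlaps Numa1 on the opposite strand, both listed in the blood table, and without a stated strand in the library preparation such reads cannot be told apart. Il1rn, the antagonist of the IL1 receptor, was 7.31, 0.87 and 0.41 FPKM against 0.51, 0.38 and 0.46. Il1f9, an IL36 cytokine of neutrophils and epithelia, was 13.03, 1.79 and 1.35 against 1.15, 1.45 and 1.61, and Il15, which sustains NK and memory T cells, was 4.17, 1.41 and 0.47 against 0.44, 0.63 and 0.56. The log2 fold changes of these 3 were -1.49, -1.15 and -1.27 with all libraries and -0.36, -0.15 and -0.54 without Ctrl 1. Il27, a cytokine of myeloid cells that shares exon bases with Apobr on the opposite strand, and Il34, a ligand of the CSF1 receptor, were low, at 0.64 and 0.28 FPKM in Ctrl 1.

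The interleukin receptors numbered 20, of which 0 were called, 0 had an unadjusted p under 0.05, and 5 had groups that did not overlap (Il10rb, Il2rb, Il18rap, Il18r1 and Il15ra). Il2rb, the signalling chain shared by the receptors for IL2 and IL15 on T and NK cells, was 6.59, 1.97 and 2.34 FPKM in the control mice and 1.93, 1.33 and 0.74 in the Akk mice. Il10rb, a chain of the IL10 receptor, was 7.62, 2.74 and 2.37 against 1.99, 1.61 and 1.29. In both the gap between the lowest control and the highest treated mouse was small beside the spread of the controls. Il18r1 and Il18rap, the chains of the IL18 receptor, are neighbours with Il1r1 in chr1:40225080-40551705. Il18rap was 4.05, 1.01 and 0.68 FPKM against 0.58, 0.65 and 0.46, and Il18r1 was 1.03, 0.46 and 0.34 against 0.28, 0.33 and 0.10. Il2rg, the common gamma chain of several interleukin receptors, was 19.90, 7.37 and 4.05 against 6.91, 2.31 and 2.50. Il10rb shares exon bases on the same strand with Gm21970, and Il2rg with Gm20489, which leaves part of their reads uncertain.

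Il4ra, Il17ra and Il6ra were high in Ctrl 1 alone. Il4ra, the receptor chain for IL4 and IL13, was 10.78, 1.71 and 1.15 FPKM in the control mice and 2.01, 2.02 and 1.17 in the Akk mice, with a log2 fold change of -0.71 that became 0.25 without Ctrl 1. Il17ra, the receptor chain for IL17 cytokines, was 16.55, 2.56 and 1.74 against 2.24, 1.59 and 1.76, and Il6ra, the receptor for IL6, was 7.59, 0.61 and 0.85 against 0.93, 0.59 and 0.81. Their Akk values lay within or beside those of Ctrl 2 and Ctrl 3. Il7r, the IL7 receptor of resting T cells, was 2.83, 1.47 and 1.43 FPKM against 1.44, 1.04 and 0.30. Here Akk 1 stood level with Ctrl 2 and Ctrl 3, and Akk 3 was lower than all. Il10ra, the ligand-binding chain of the IL10 receptor, was 7.65, 1.52 and 0.77 FPKM against 2.00, 0.70 and 0.75, Il13ra1 was 8.53, 0.99 and 0.74 against 0.65, 1.05 and 0.87, and Il1rap, the accessory chain of the IL1 receptor, was 4.49, 0.28 and 0.56 against 0.37, 0.72 and 0.42. Il21r was 3.19, 0.95 and 0.59 against 1.09, 0.49 and 0.52, and Il15ra, which presents IL15, was 1.59, 0.16 and 0.21 against 0.13, 0.04 and 0.12. Of these only Il15ra had groups that did not overlap. The other 6 chains, Il6st, Il12rb1, Il12rb2, Il2ra, Il31ra and Il1r1, were below 1 FPKM in every library.

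The TNF ligands were low in blood except Tnfsf14 (LIGHT), a costimulator of T cells. Of 6 ligands 0 were called and 1, Tnfsf13, had an unadjusted p under 0.05. Tnfsf14 was 8.73, 1.85 and 0.98 FPKM in the control mice and 0.57, 0.62 and 0.82 in the Akk mice, without overlap, with a log2 fold change of -1.80 and, without Ctrl 1, -0.93. Tnfsf13 (APRIL), a survival factor of plasma cells, was 1.70, 0.34 and 0.08 against 0, 0 and 0.28, so that the groups overlapped. Tnfsf12 and Tnfsf13 share exons with the fused gene Tnfsfm13, which leaves their reads uncertain. Tnfsf12 was 2.06, 0.61 and 0.23 FPKM against 0.33, 0.22 and 0.50, and Tnfsf13b (BAFF), a survival factor of B cells, and Tnfsf10 (TRAIL), which triggers cell death, were at 0.96 and 0.51 FPKM in Ctrl 1 and at most 0.20 elsewhere. Tnf itself was 0.37, 0.05 and 0.05 FPKM in the control mice and 0.08, 0 and 0.08 in the Akk mice. Apart from Ctrl 1 the Tnf values lay within the same narrow range, and its log2 fold change was -0.57 with all libraries (SE 0.52, adjusted p = 0.487 with limma), -0.02 without Ctrl 1 and 0.35 with centred libraries.

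Of the 12 TNF receptors 0 were called, 0 had an unadjusted p under 0.05, and Tnfrsf18 and Tnfrsf26 had groups that did not overlap. Tnfrsf18 (GITR), a receptor of regulatory and activated T cells, was 1.11, 1.12 and 0.49 FPKM in the control mice and 0.44, 0.22 and 0.27 in the Akk mice. With Xcl1 it was the only member whose highest value was not in Ctrl 1, and its log2 fold change was -1.26 with all libraries and -1.09 without Ctrl 1 (adjusted p = 0.487 and 0.906 with limma). Tnfrsf1a, the death domain receptor for TNF, was 17.88, 1.87 and 1.46 FPKM against 1.48, 1.26 and 2.29, and Tnfrsf1b, the other TNF receptor, was 17.77, 2.91 and 1.88 against 2.09, 0.89 and 1.79. The Tnfrsf1a means were 7.07 ± 9.36 and 1.68 ± 0.542 FPKM (SD, n = 3), and their ratio of 4.22 became 0.993 without Ctrl 1. Tnfrsf14, a receptor for LIGHT, was 1.29, 0.13 and 0.49 against 0.31, 0.34 and 0.21, with Ctrl 2 the lowest of the 6 libraries. Tnfrsf13b (TACI), a B cell receptor for Tnfsf13b, was 1.71, 0.73 and 0.29 FPKM against 0.67, 0.25 and 0.23, and Tnfrsf21, a death domain receptor, was 2.23, 0.21 and 0.15 against 0.20, 0.07 and 0.21. The neighbours Tnfrsf26, Tnfrsf22 and Tnfrsf23 reached 0.62, 0.50 and 0.43 FPKM in Ctrl 1, and Tnfrsf9, Tnfrsf8 and Tnfrsf11a reached 0.21, 0.17 and 0.10.

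In the TGF-beta class 0 of 7 were called and none had groups that did not overlap. Tgfb1 was 90.23, 18.96 and 11.79 FPKM in the control mice and 10.06, 11.81 and 11.46 in the Akk mice, means of 40.3 ± 43.4 and 11.1 ± 0.926 (SD, n = 3). The Akk mice lay close together and beside Ctrl 3, and the ratio of 3.63 became 1.38 without Ctrl 1. Tgfbr2, a chain of its receptor, was 5.72, 1.24 and 1.28 FPKM against 1.78, 1.06 and 0.96, and Tgfbr1, the other chain, was 1.69, 0.35 and 0.24 against 0.44, 0.11 and 0.27. Tgfbi, a TGF-beta-induced matrix protein made by monocytes, was 48.73, 4.37 and 2.92 FPKM against 2.92, 4.21 and 4.05, with a log2 fold change of -1.20 with all libraries and 0.04 without Ctrl 1. Tgfb1i1, a focal adhesion protein, was 13.48, 2.66 and 1.17 FPKM against 1.26, 1.67 and 1.89, and Tgfbrap1 and Tgfbr3 were at 0.99 and 0.26 FPKM in Ctrl 1 and lower elsewhere.

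The signalling genes downstream of these receptors were counted from hand-written lists. Of the adaptors of TNF receptors and NF-kB, 22 of 30 were in the table, of JAK-STAT genes 23 of 25, of the G protein pathway of chemokine receptors 29 of 32, and of TGF-beta signalling 14 of 19. In each list 0 were called and 0 had an unadjusted p under 0.05, and the groups did not overlap for 4, 6, 7 and 5 of them. Their median log2 fold changes were -0.97, -1.12, -1.06 and -0.92, beside -0.87 over all genes, and -0.25, -0.36, -0.26 and -0.25 without Ctrl 1, beside -0.24. Jak1, the kinase bound to many of these interleukin receptors, was 29.20, 6.30 and 5.67 FPKM in the control mice and 5.16, 4.64 and 3.03 in the Akk mice. Rac1, a GTPase of chemokine-driven migration, was 108.12, 24.32 and 15.57 against 14.35, 15.48 and 15.01. In both the groups did not overlap, yet Ctrl 1 stood far above the others. For Rac1 the gap was very small, 15.57 FPKM in Ctrl 3 against 15.48 in Akk 2. In each list the groups overlapped for most genes.

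The hippocampus of the same mice was compared in a table of 284 genes, of which 1.06% were called. That table holds only a part of the genes, so absence from it does not show that a member was absent or unchanged in the tissue. Of the members only Il7, a survival factor of lymphocytes, was listed in the hippocampus table, and it was not called. In the hippocampus Il7 was 0.05, 0.02 and 0.05 FPKM in the control mice and 0.02, 0.09 and 0.09 in the Akk mice, with a log2 fold change of 0.23 (SE 0.24, adjusted p = 0.859 with limma). In blood it was 0.24, 0.07 and 0.03 against 0, 0.01 and 0.05. The values were near the lowest that the tables list, and the groups overlapped in both tissues.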

How the data were processed

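The authors deposited FPKM per gene and library, rounded to 2 decimals, for 6 blood libraries and for the hippocampus. The submitters' processing notes name TopHat2, Cufflinks and GRCm38, whereas the study's methods name HISAT2, Bowtie2 and RSEM for reads of the BGISEQ-500. Per the labels, mRNA was selected with oligo(dT) beads. The number of mice limits the precision, and how far read sampling adds to this cannot be told, as depth is unknown. P-values rest on the spread between mice, which limma shares over the genes of the table. They do not measure the spread of a single gene alone, and 3 against 3 cannot give an exact permutation p below 0.1.

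From the deposited FPKM, log2(FPKM + 0.1) was fitted with limma 3.58.1 (R 4.3.3) over the 8003 blood genes and separately over the 284 hippocampal genes, with a variance trend, no scaling between libraries and Benjamini-Hochberg adjustment. The fit was tested on simulated data drawn gene by gene, without a shift of a whole library. That test therefore does not cover a library such as Ctrl 1. The alternatives were pseudocounts of 1 and 0.01, a mean FPKM of at least 1, centred libraries, quantile normalization, no trend, other fold thresholds, a ratio of means with no test, a block by replicate number and each library left out. Gene positions came from GENCODE M21 (GRCm38), exon overlaps from its models (24 of 77 members), and near-identical transcripts from blastn 2.17.0 (1 of 77, Tnfsf12). Tables were made in Python 3.11.15 (numpy 2.4.6, pandas 2.3.3, scipy 1.17.1) and plots with matplotlib 3.10.9.

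Members and lists were chosen with earlier results of these data known. The genes named are Xcl1, Tnf, up to 5 members per class with the highest median FPKM, members with an unadjusted p under 0.05, members not highest in Ctrl 1, up to 10 of those whose groups did not overlap, and Il7. Every other gene, signalling genes included, was named after its values were seen. The red cell markers were not in the table used here. Some results are not reported here.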

Additional observations from a re-analysis of the deposited data

How the results depend on the processing

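The count of members called, 0, became 1 (Xcl1) with a pseudocount of 0.01 and lay between 0 and 1 with each library left out, the 1 without Ctrl 3. With a replicate block 0 were called. The replicate numbers did not pair the mice, with correlations of same-numbered deviations of 0.036, -0.011 and -0.096, and 0 of 6 libraries correlated best with their own number. The members with an unadjusted p under 0.05, 6 in the reported fit, were 2 with a pseudocount of 1, 11 with 0.01, 0 at a mean FPKM of at least 1, 12 without the trend, 17 with the replicate block and 1 to 34 with each library left out. The median log2 fold change of the members, -1.10, was -0.19 with centred libraries, -0.049 with quantile normalization and -0.081 with centred libraries without Ctrl 1. The causes were not tested.

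Over all 77 members, the log2 fold change was above 0 for 31 with centred libraries, 33 with quantile normalization, 36 with centred libraries without Ctrl 1 and 14 without Ctrl 1. Among the 45 members named by rule it turned above 0 as follows. With centred libraries it was 0.26 for Ccl4, 0.21 for Il4ra, 0.19 for Il7, 0.012 for Tgfbr1, 0.17 for Tgfbr2, 0.35 for Tnf, 0.0077 for Tnfrsf13b, 0.33 for Tnfrsf14 and 0.042 for Tnfsf12. With quantile normalization it was 0.055 for Ccl3, 0.38 for Ccl4, 0.099 for Ccl6, 0.020 for Ccl9, 0.0054 for Il17ra, 0.45 for Il4ra, 0.051 for Tgfb1i1, 0.027 for Tgfbr1, 0.38 for Tgfbr2, 0.074 for Tnf, 0.068 for Tnfrsf13b, 0.33 for Tnfrsf14 and 0.11 for Tnfsf12. With centred libraries without Ctrl 1 it was 0.19 for Ccl3, 0.22 for Ccl4, 0.066 for Ccl6, 0.15 for Ccl9, 0.064 for Il17ra, 0.099 for Il1f9, 0.50 for Il4ra, 0.099 for Tgfb1i1, 0.29 for Tgfbi, 0.079 for Tgfbr1, 0.21 for Tgfbr2, 0.23 for Tnf, 0.30 for Tnfrsf14, 0.23 for Tnfrsf1a and 0.098 for Tnfsf12. With each library left out it ran from -1.31 to 0.25 for Il4ra, -1.97 to 0.041 for Tgfbi and -1.24 to 0.054 for Tnfrsf14, the highest without Ctrl 1. The table holds selected genes and its sums are not library totals.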
